A study of Mus musculus with 70 samples.

Results

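The comparison described here is that of liver gene expression in the early dark phase (ZT13, 13 h after lights on) with the early light phase (ZT1, 1 h after lights on) in 4-week-old male mice. Its members are 11 of the 34 liver libraries made at 4 weeks, and of 70 in all, chosen by their age and zeitgeber time (ZT) labels: 6 at ZT1 (3 Ctr and 3 HFD) and 5 at ZT13 (2 Ctr and 3 HFD). Both maternal diets were analysed together, with diet as a covariate.

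The mice were wild-type C57BL/6 male offspring, and Ctr and HFD name the diet of their mothers. Dams received a control diet (15.8 % of energy from fat) or a high-fat diet (60 %) from 5 weeks of age, for 5 weeks before mating and through pregnancy. From delivery on the dams ate normal chow, and the offspring were weaned on day 21. Animals were kept at 22 °C in cycles of 12 h light and 12 h dark, with lights on at 6 in the morning. Each library is mRNA from the liver of a separate mouse, and mice of a group came from different litters. The counts per library summed to between 17045108 and 18220435.

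In the liver, daily change in mRNA depends on a molecular clock and on feeding. The activators BMAL1 (gene Arntl), CLOCK and NPAS2 switch on the Per and Cry genes, whose proteins shut the activators off, and a side loop of REV-ERB repressors (Nr1d1, Nr1d2) and the activator RORA sets when Arntl is made. Mice are active and eat mainly in the dark, so ZT13 falls at the start of their feeding period and ZT1 at its end, and sleep, feeding, light and body temperature differ together between these times.

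A pair of libraries stood apart from the rest before any comparison was made. Transcripts of the mitochondrial genome took 12.42 % of the counts in HFD ZT1 replicate 3 and 10.3 % in HFD ZT13 replicate 3, against 4.849 to 8.041 % in the other 9. In the same libraries, the deviation of a gene from its mean over the 11 libraries was lower the higher its GC content. Spearman's rho across genes was -0.651 and -0.648, against -0.289 or more elsewhere, genes not being independent replicates. The cause was not tested. There is 1 such library at each time point. Ctr ZT1 replicate 3 leaned the same way, with a mitochondrial share of 8.041 % and the rho of -0.289. Its deviations from its group mean correlated with theirs (r = 0.463 with HFD ZT1 replicate 3 and 0.429 with HFD ZT13 replicate 3). The time points may therefore not be balanced in this trend. For the gene lists, the count without the 2 that stand apart is given where it moved by over 1.5 times. Hepatocyte markers were present, as the tissue label has it. Of the 11 listed, 10 were found by symbol (no counted gene carries the symbol Tf), and none was at 0. At ZT13, 1 fell (Fga) and none rose in edgeR's test (1 at an unadjusted p below 0.05, 0 by both DESeq2 and limma-voom). Without the 2 libraries that stand apart, 1 rose in that test, Hnf4a (adjusted p = 0.0447). The markers had a median log2 fold change of 0.04 with all libraries. Their summed level was between 133015 and 179726 CPM (counts scaled to a common library size) at ZT1 and between 137529 and 166249 at ZT13, of which Alb, the albumin gene, held 70.2 %. In bulk tissue, fewer cells of a type and less RNA per cell cannot be told apart, and that holds for every difference below the level of the whole liver.

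Between early light and early dark, the liver clock had turned over. Activator transcripts Arntl and Npas2 were at a low level at ZT13, while the Per genes, Ciart, Nr1d2 and the output factors Dbp and Tef were high. Members of the lists for glucose and glycogen, ribosome biogenesis and cytosolic heat shock rose and none of them fell, while members of those for cholesterol synthesis and endoplasmic reticulum chaperones fell and none rose. Of 16776 genes tested, 1422 differed between ZT13 and ZT1 (8.48 %, adjusted p below 0.05 in edgeR, by its quasi-likelihood F test and the method of Benjamini and Hochberg), which is how "rose" and "fell" are used throughout. At ZT13, 723 of them were higher (4.31 % of the genes tested) and 699 lower (4.17 %), and the median log2 fold change of all genes was -0.01. In 947 of the 1422, every ZT13 library lay on one side of every ZT1 library. The 1422 were picked by a test on the same values, and the share among all genes tested is not given here. The 947 are therefore a description and no further support. The count of 1422 moved by over 1.5 times in these settings: 2586 genes when the trend with GC content was removed from each library, 2653 with that and a replicate block, 938 without Ctr ZT13 replicate 2, and 358 and 640 without all libraries numbered 2 or 1. Without the 2 libraries that stand apart it was 1849, of which 1342 were also among the 1422.

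Of the clock activators, Arntl and Npas2 fell, and Clock and Rora did not pass the test. Arntl, which encodes BMAL1, was between 27.5 and 36.4 CPM at ZT1 (median 30.9) and 7.74 and 7.38 CPM in Ctr and 8.91, 9.45 and 6.14 CPM in HFD mice at ZT13. All ZT13 livers were below all ZT1 livers, and Ctr and HFD mice overlapped at each time. The fall was 4.01-fold (log2 fold change -2.004, SE 0.14, adjusted p = 2.39e-07). Npas2, the partner that can stand in for CLOCK, was between 10.2 and 15.1 CPM at ZT1 (median 11.4) and at 0 in 3 of the 5 libraries at ZT13, the other 2 being Ctr replicate 3 (0.4002 CPM) and HFD replicate 3 (0.1204 CPM). Its log2 fold change of -6.72 (SE 0.46, adjusted p = 1.91e-07) rests on 9 counts in all at ZT13. Clock itself was between 51.2 and 102 CPM at ZT1 (median 66.6) and 60.0 and 39.3 CPM in Ctr and 59.2, 44.6 and 74.5 CPM in HFD mice at ZT13. The time points overlapped (log2 fold change -0.37, SE 0.18, adjusted p = 0.251). Rora had a log2 fold change of -0.36 (adjusted p = 0.383).

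Of the 11 clock repressors, 7 rose, 1 fell and 3 did not pass the test (median log2 fold change 1.41). Per1, Per2 and Per3 form repressor complexes with CRY proteins. Per2 was between 4.36 and 12.7 CPM at ZT1 (median 7.37) and 41.5 and 36.1 CPM in Ctr and 42.6, 40.8 and 35.1 CPM in HFD mice at ZT13. At ZT13 its 5 livers lay within a narrow band, well above all 6 at ZT1, and the rise was 4.90-fold (log2 fold change 2.29, SE 0.21, adjusted p = 3.31e-06). Per3 was between 1.14 and 3.10 CPM at ZT1 (median 1.36) and 27.6 and 27.8 CPM in Ctr and 23.1, 19.3 and 20.1 CPM in HFD mice at ZT13, again with no overlap, a 14.2-fold rise (log2 fold change 3.83, SE 0.24, adjusted p = 8.69e-08). Its counts are uncertain because it overlaps Camta1 and the strand setting of the counting is not stated in the sources used here. Per1 rose less (log2 fold change 1.41, SE 0.20, adjusted p = 2.20e-04), with HFD replicate 1 as the highest ZT1 library at 27.1 CPM. The cryptochromes rose least: Cry1 from a median of 26.1 to 37.8 CPM (log2 fold change 0.58) and Cry2 from 22.7 to 39.2 CPM (0.90). Ciart, which binds BMAL1 and represses it, was between 0 and 0.343 CPM at ZT1 (median 0.150) and 10.2 and 11.1 CPM in Ctr and 7.75, 8.78 and 8.49 CPM in HFD mice at ZT13. It was nearly silent in every liver at ZT1, with 17 counts in all, and present in every liver at ZT13 (log2 fold change 5.86, SE 0.35, adjusted p = 4.49e-08).

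The REV-ERB genes, which repress Arntl, gave different values at these times. Nr1d2 was between 11.04 and 37.8 CPM at ZT1 (median 18.04) and 104 and 91.7 CPM in Ctr and 93.1, 72.0 and 161 CPM in HFD mice at ZT13. All 5 livers at ZT13 exceeded those at ZT1 (log2 fold change 2.27, SE 0.31, adjusted p = 1.74e-04). Nr1d1 was between 6.07 and 31.4 CPM at ZT1 (median 7.74) and 11.6 and 9.55 CPM in Ctr and 11.4, 12.2 and 15.1 CPM in HFD mice at ZT13. Its highest value came from Ctr ZT1 replicate 3 (31.4 CPM, with 11.8 CPM as the next highest at ZT1), so that the ZT13 values lay inside the ZT1 range (log2 fold change 0.08, SE 0.36, adjusted p = 0.935). Nr1d1 overlaps Thra on the other strand, and its counts are uncertain. Its log2 fold change was negative without any 1 of 5 libraries (Ctr ZT1 replicates 1 and 2, HFD ZT1 replicates 1 and 2 and HFD ZT13 replicate 3, down to -0.05), and 0.56 without Ctr ZT1 replicate 3. Nfil3, a repressor that competes with DBP for the same sites, fell from a median of 68.9 to 53.05 CPM (log2 fold change -0.46, SE 0.12, adjusted p = 0.0232). That call was lost without Ctr ZT13 replicate 3, HFD ZT1 replicate 1 and HFD ZT13 replicates 1 and 2, each left out alone (adjusted p from 0.0501 to 0.0898). Nfil3 also lost it with all 34 libraries in the fit (adjusted p = 0.0525). Bhlhe40 (0.03, adjusted p = 0.949) and Bhlhe41 (2.02, adjusted p = 0.164), which compete with the activators at E-boxes, did not pass the test. The sign of Bhlhe40 turned without Ctr ZT1 replicate 1 (-0.05), HFD ZT1 replicate 1 (-0.03) or HFD ZT13 replicate 3 (-0.02). Bhlhe41 had 10 counts in all at ZT1.

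All 10 clock output genes rose, with a median log2 fold change of 2.18, and no other list had every member called. Dbp, a transcription factor of the PAR bZIP family, was between 0.158 and 0.502 CPM at ZT1 (median 0.332) and 32.4 and 40.2 CPM in Ctr and 21.3, 26.1 and 15.6 CPM in HFD mice at ZT13. Each ZT13 liver had many times the level of any ZT1 liver, and the lower ZT13 values were those of the HFD mice. The rise was 82.8-fold (log2 fold change 6.37, SE 0.22, adjusted p = 5.16e-11), with the caution that Dbp overlaps Sphk2. Its relative Tef was between 19.2 and 34.8 CPM at ZT1 (median 22.4) and 156 and 156 CPM in Ctr and 125, 128 and 127 CPM in HFD mice at ZT13. The 2 Ctr livers at ZT13 were highest (log2 fold change 2.53, SE 0.14, adjusted p = 1.35e-08). Hlf, also a PAR bZIP factor, rose by less (log2 fold change 0.97, adjusted p = 2.30e-04). Other output genes that rose were Usp2 (3.02), a ubiquitin-specific protease, Noct (2.47), which encodes nocturnin, Wee1 (2.43), a kinase that holds back entry into mitosis, and Tsku (1.74) and Tspan4 (1.07), with log2 fold changes in parentheses. Por, the reductase that passes electrons to cytochrome P450 enzymes, was between 238 and 358 CPM at ZT1 (median 252) and 1308 and 1121 CPM in Ctr and 888, 1277 and 605 CPM in HFD mice at ZT13. The lowest ZT13 value, in HFD replicate 3, was still above every ZT1 value (log2 fold change 1.94, SE 0.18, adjusted p = 3.40e-06). Gys2, liver glycogen synthase, rose 3.04-fold (log2 fold change 1.61, SE 0.14, adjusted p = 1.72e-06). Usp2 and Tspan4 overlap other genes (Gm49380 and Chid1).

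**Figure D1:**
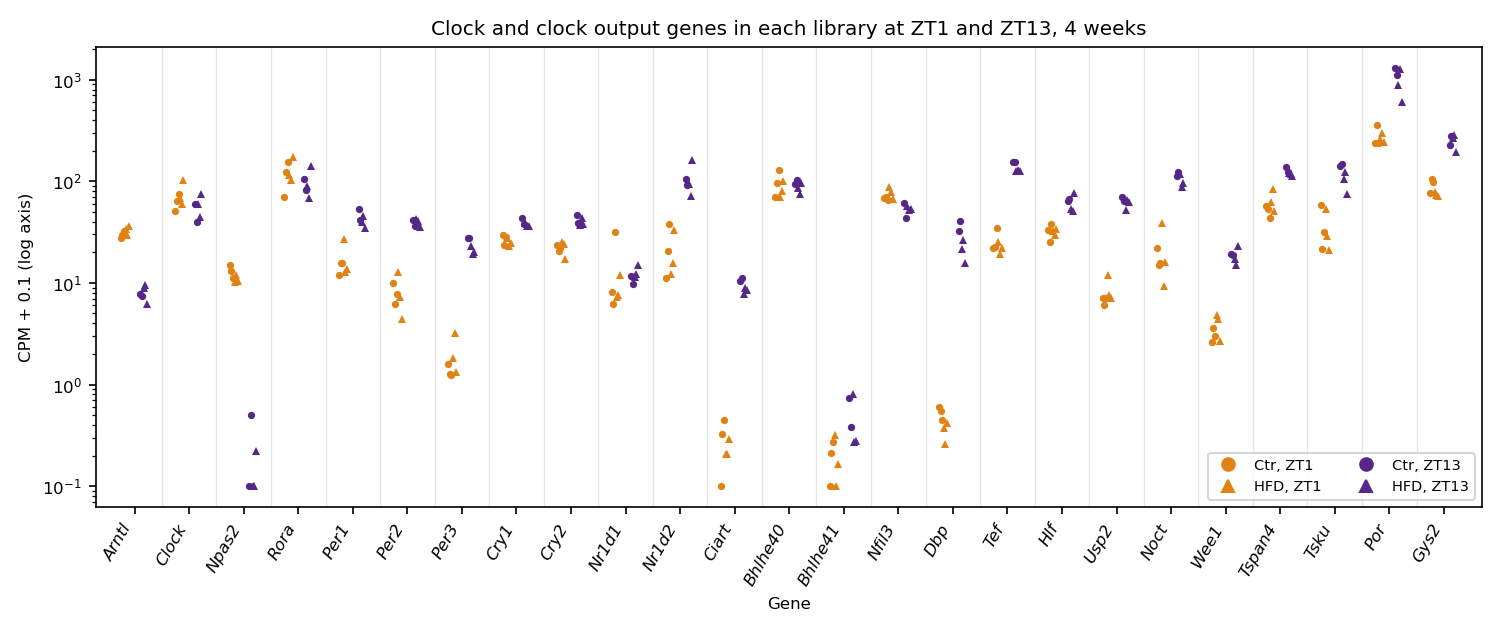
Level of clock and clock output genes in each of the 11 libraries at 4 weeks, in CPM plus 0.1 on a log axis, with 6 libraries at ZT1 (orange) and 5 at ZT13 (purple), circles for Ctr and triangles for HFD. Dbp and Ciart stand far higher at ZT13 and Npas2 far lower, while the points of Clock, Rora, Nr1d1 and Bhlhe40 overlap.

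ZT1 and ZT13 are 2 points on a daily curve, and the other 4 times of the same count table show where they lie on it. The medians over the mice of a time are given as a description, with 5 or 6 mice each. For 1 of these libraries, HFD ZT21 replicate 3, a label field gives the age as 16 weeks. It was taken as 4 weeks by its title, and it enters the ZT21 medians, the filter and the fit of all 34 libraries, so these carry that doubt. Arntl had medians of 31.2, 11.4, 0.945, 7.81, 26.9 and 33.3 CPM at ZT1, 5, 9, 13, 17 and 21. ZT1 was therefore close to its top and ZT13 was on its way up again from a trough at ZT9. Dbp ran the other way and was highest at ZT9 (168 CPM), with a median of 26.3 CPM at ZT13. Nr1d1 had medians of 52.6 CPM at ZT5 and 43.7 at ZT9, and of 7.81 at ZT1 and 11.7 at ZT13, so ZT1 and ZT13 lay on the rising and the falling side of its curve. Nr1d2 was highest at ZT9 (144 CPM) and still at 93.97 CPM at ZT13. Cry1 was lowest at ZT5 (7.25 CPM) and highest at ZT21 (70.8 CPM). Its values at ZT1 (26.3 CPM) and ZT13 (38.1 CPM) lay on the falling and the rising side. Per2 held 41.2 CPM at ZT13 and 41.4 CPM at ZT17, its 2 highest medians. Among the named genes that rose, 47 had their highest median at ZT13, 16 at ZT9, 9 at ZT17, 3 at ZT21 and 1 at ZT5. Of those that fell, 19 were highest at ZT1, 18 at ZT21, 8 at ZT5 and 1 at ZT9. Because genes were named for their difference between ZT1 and ZT13, these counts describe the naming as well as the day.

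**Figure D2:**
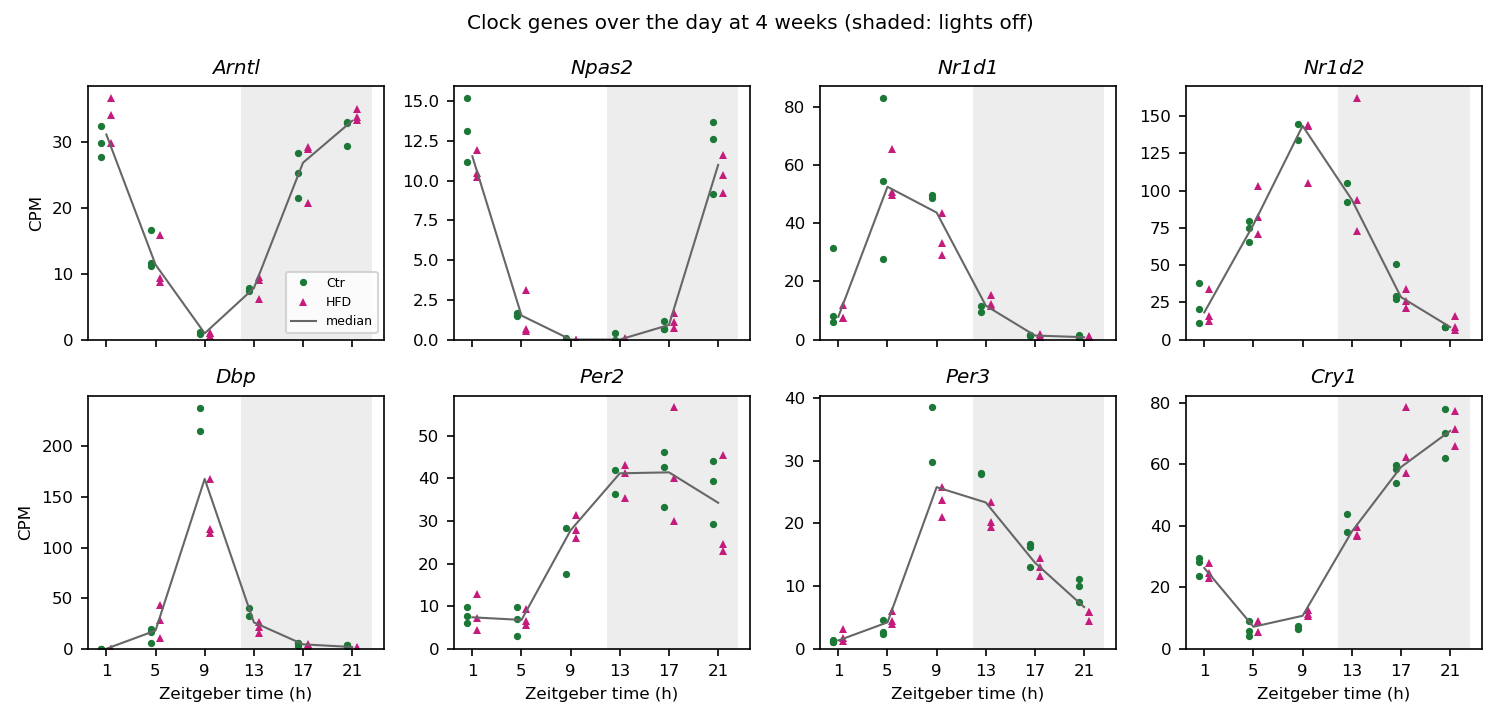
Levels of 8 clock genes in all 34 libraries at 4 weeks, in CPM against zeitgeber time in h, with points for single mice (green circles Ctr, pink triangles HFD), lines through the medians and shading for lights off. Arntl and Npas2 are high at ZT21 and ZT1, Dbp peaks at ZT9, and Nr1d1 has similar values at ZT1 and ZT13 on both sides of its peak.

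Outside the clock lists, the genes with the largest rises (among called protein-coding genes with a mean of at least 1 CPM and no overlap between the times, clone names left out) were Ppp1r3g, Hcn3, Cyp7a1, Fmo2, Fam107a and Onecut1. Ppp1r3g, a subunit that directs protein phosphatase 1 to glycogen, was between 1.54 and 23.4 CPM at ZT1 (median 3.04) and 50.7 and 76.8 CPM in Ctr and 50.0, 59.4 and 38.7 CPM in HFD mice at ZT13. Ctr ZT1 replicate 2 held the high ZT1 value, the other 5 lying at or below 3.14 CPM, and no ZT13 liver came down to it (log2 fold change 3.48, SE 0.51, adjusted p = 3.55e-04). Cyp7a1, the rate-limiting enzyme of bile acid synthesis, was between 17.3 and 51.01 CPM at ZT1 (median 37.3) and 418 and 297 CPM in Ctr and 247, 277 and 175 CPM in HFD mice at ZT13. Both Ctr mice were above all 3 HFD mice at ZT13, and all 5 were above the ZT1 range (log2 fold change 2.97, SE 0.25, adjusted p = 1.68e-06). The flavin monooxygenase gene Fmo2 rose 6.76-fold with no overlap (log2 fold change 2.76, SE 0.18, adjusted p = 1.20e-07). The glucocorticoid target Fam107a (2.70) and the transcription factor Onecut1, or HNF6 (2.59), rose with wider spreads. Fam107a reached 47.1 CPM in HFD ZT13 replicate 2, and Onecut1 14.1 CPM in HFD ZT1 replicate 3. Hcn3 (3.16) lies beside and overlaps Pklr, which also rose, and its counts may hold reads of Pklr.

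By the same criteria, the largest falls outside the clock lists were in Loxl4, Aqp8, Spon2, Chrna4, Tubb2a, Dhrs9, Ptk6, Hmmr and Slc34a2. Loxl4, of the lysyl oxidase family that cross-links matrix proteins, was between 17.6 and 29.2 CPM at ZT1 (median 23.1) and 0.462 and 1.03 CPM in Ctr and 0.582, 1.41 and 0.662 CPM in HFD mice at ZT13. Every ZT13 liver was far below every ZT1 liver (log2 fold change -4.83, SE 0.26, adjusted p = 1.35e-08). Aqp8, a water channel of the hepatocyte, was between 74.5 and 178 CPM at ZT1 (median 112) and 10.6 and 10.5 CPM in Ctr and 10.1, 8.61 and 5.84 CPM in HFD mice at ZT13. The 5 ZT13 livers lay far below the 6 at ZT1, a 12.4-fold fall (log2 fold change -3.64, SE 0.19, adjusted p = 1.35e-08). The tubulin gene Tubb2a fell 7.28-fold, from a median of 145 to 17.4 CPM (log2 fold change -2.87, SE 0.17, adjusted p = 4.49e-08). Falls of Spon2 (-3.37), a secreted matrix protein, Chrna4 (-3.24), a nicotinic receptor subunit, Dhrs9 (-2.73), Ptk6 (-2.71) and Hmmr (-2.56), a spindle-associated protein, started from medians of at most 17.8 CPM at ZT1, with log2 fold changes in parentheses. Slc34a2 (-2.43) was at 8.18 CPM in Ctr ZT1 replicate 1 and at or below 2.17 CPM in the other 5, and its call was lost without Ctr ZT13 replicates 2 and 3, each alone (adjusted p from 0.0622 to 0.0701).

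Glucocorticoids, whose blood level in mice goes up before the active phase, control many liver genes. Of 18 of their targets measured, 9 rose and 2 fell, with a median log2 fold change of 0.54 against -0.01 for all genes. Ddit4, an inhibitor of mTORC1 signalling, was between 24.8 and 34.1 CPM at ZT1 (median 31.9) and 182 and 158 CPM in Ctr and 87.7, 162 and 73.8 CPM in HFD mice at ZT13. The ZT1 livers were alike, and those at ZT13 spread widely above them (log2 fold change 2.10, SE 0.19, adjusted p = 2.45e-06). Fkbp5, a co-chaperone of the glucocorticoid receptor, rose 2.66-fold (log2 fold change 1.41, SE 0.16, adjusted p = 2.93e-05). The phosphatase gene Dusp1 (1.18), Per1, Fam107a, Tat (0.73), Sds (0.80), Sult1e1 (2.39) and Sgk1 (0.64) rose as well, but Sgk1 and Sds lost the call with all 34 libraries in the fit (adjusted p = 0.0843 and 0.102). Cdkn1a, which encodes the cell cycle inhibitor p21, went the other way and was between 63.04 and 103 CPM at ZT1 (median 71.0) and 20.3 and 16.6 CPM in Ctr and 10.3, 15.6 and 18.7 CPM in HFD mice at ZT13. Its ZT13 values were all below its ZT1 values (log2 fold change -2.21, SE 0.16, adjusted p = 3.19e-07), and the transcription factor gene Tfcp2l1 also fell (-0.90).

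Immediate early genes respond within minutes to hormones and other stimuli. Of 21 measured, 4 rose and 1 fell (median log2 fold change 0.40). Gadd45g rose 5.41-fold (log2 fold change 2.44, SE 0.31, adjusted p = 8.76e-05) with no overlap, and Dusp1, Jun (1.39) and Nr4a1 (1.21) rose by less, the ranges of Jun and Nr4a1 overlapping between the time points. Nr4a1 lost its call with all 34 libraries in the fit (adjusted p = 0.105) and with no diet covariate (adjusted p = 0.0747). Egr1, a transcription factor, was between 13.9 and 306 CPM at ZT1 (median 84.2) and 15.5 and 20.1 CPM in Ctr and 10.4, 14.1 and 11.8 CPM in HFD mice at ZT13. Levels at ZT1 were scattered over the mice, from HFD replicate 3 up to Ctr replicate 2, and HFD ZT1 replicate 3 lay within the low ZT13 range (log2 fold change -2.68, SE 0.52, adjusted p = 0.00335). The number that fell was 2 without Ctr ZT1 replicate 1, Ctr ZT1 replicate 3 or HFD ZT1 replicate 3, each left out alone, and without the 2 libraries that stand apart.

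In the list for glucose production and glycogen, 11 of 22 genes rose and none fell in edgeR's test (1 at an unadjusted p below 0.05, 0 by both DESeq2 and limma-voom), with a median log2 fold change of 0.50 and 19 of 22 values above 0. Without HFD ZT13 replicate 3, 1 gene of the list fell. Gys2 was between 70.9 and 106 CPM at ZT1 (median 77.6) and 226 and 279.8 CPM in Ctr and 269, 286 and 194 CPM in HFD mice at ZT13. HFD ZT13 replicate 3 was the lowest of its group, and all 5 exceeded the ZT1 livers. G6pc, the catalytic subunit of glucose-6-phosphatase that releases free glucose, was between 366 and 694 CPM at ZT1 (median 569) and 1371 and 1464 CPM in Ctr and 1490.2, 1419 and 1025 CPM in HFD mice at ZT13. Again HFD replicate 3 was lowest at ZT13 and no values overlapped (log2 fold change 1.32, SE 0.15, adjusted p = 2.69e-05). Slc37a4, the transporter that feeds glucose-6-phosphatase, rose 1.83-fold (log2 fold change 0.87, SE 0.12, adjusted p = 1.88e-04). The list mixes enzymes that build and break down glycogen or glucose. Beside Gys2 and Ppp1r3g, the branching enzyme Gbe1 (0.71) serves glycogen synthesis, Fbp1 (0.59) gluconeogenesis, and Slc2a2 (0.78) is the glucose transporter of the hepatocyte membrane. Got1 (0.85), Tat (0.73) and Sds (0.80) are enzymes of amino acid breakdown. Igfbp1, a secreted binding protein for insulin-like growth factors that insulin represses, was between 351 and 996 CPM at ZT1 (median 508) and 1338 and 1481 CPM in Ctr and 1301, 1549 and 1263 CPM in HFD mice at ZT13. All 5 ZT13 values were above 996 CPM, the value of Ctr ZT1 replicate 2 (log2 fold change 1.28, SE 0.20, adjusted p = 7.15e-04).

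Lipid synthesis genes moved in both directions. Of 24 genes for fatty acid and triglyceride synthesis, 7 rose and 5 fell, and the median log2 fold change was 0.04. Thrsp, a gene responsive to thyroid hormone and carbohydrate, was between 177 and 479 CPM at ZT1 (median 212) and 1237 and 859 CPM in Ctr and 1520.5, 1432 and 694 CPM in HFD mice at ZT13. The ranges did not overlap, and HFD replicate 3 was again lowest at ZT13 (log2 fold change 2.21, SE 0.26, adjusted p = 4.37e-05). The elongase Elovl6 (1.72), liver pyruvate kinase Pklr (1.58), the desaturase Fads2 (0.84), Lpin1 (1.04), acetyl-CoA carboxylase Acaca (0.49) and Dgat2 (0.43), which completes triglycerides, rose. Other elongases fell. Elovl3 was between 183 and 509 CPM at ZT1 (median 247) and 48.1 and 59.9 CPM in Ctr and 64.1, 55.1 and 55.9 CPM in HFD mice at ZT13. The ZT13 values were tight and the ZT1 values were not (log2 fold change -2.40, SE 0.24, adjusted p = 7.96e-06). Elovl5 fell 3.15-fold (log2 fold change -1.65, SE 0.15, adjusted p = 2.45e-06), and so did Acss2 (-1.06), Gpam (-0.79) and Mlxipl (-0.44), the gene of the carbohydrate-response factor ChREBP. Single libraries ended some of these calls: Acaca without Ctr ZT1 replicate 1, Ctr ZT13 replicate 2 and HFD ZT13 replicate 2 (adjusted p from 0.0575 to 0.146), Dgat2 without Ctr ZT1 replicates 1, 2 and 3, Ctr ZT13 replicates 2 and 3, HFD ZT1 replicate 2 and HFD ZT13 replicates 1 and 2 (adjusted p from 0.0541 to 0.126) and Mlxipl without Ctr ZT13 replicate 3, HFD ZT1 replicate 2 and HFD ZT13 replicate 2 (adjusted p from 0.0551 to 0.0642). Dgat2 also lost it with no diet covariate (adjusted p = 0.0521). Elovl6 and Elovl5, both called, thus had opposite signs. Acss2 overlaps Ggt7 and Gss.

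Genes of cholesterol synthesis and LDL uptake were lower at ZT13 or did not pass the test. Of 24, 4 fell and none rose in edgeR's test (0 at an unadjusted p below 0.05, 0 by both DESeq2 and limma-voom), 6 had a log2 fold change above 0 and the median was -0.36. Without the 2 libraries that stand apart, 9 fell. Hmgcs1, which makes the precursor that HMG-CoA reductase uses, was between 276 and 575 CPM at ZT1 (median 313) and 112 and 80.6 CPM in Ctr and 93.2, 117 and 118 CPM in HFD mice at ZT13. The highest ZT13 value lay well below the lowest ZT1 value (log2 fold change -1.83, SE 0.20, adjusted p = 1.88e-05). The late steps Sc5d (-0.78), Dhcr7 (-0.77) and Nsdhl (-0.57) fell less. Nsdhl lost its call without Ctr ZT13 replicate 3 (adjusted p = 0.0605). Hmgcs1 had its lowest median of the 6 times at ZT13 (113 CPM) and its highest at ZT21 (536 CPM).

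Bile acid genes had 5 that rose and 2 that fell among 18 tested (median log2 fold change 0.10). Beside Cyp7a1, those that rose include the bile acid receptor FXR, Nr1h4 (log2 fold change 0.58, SE 0.11, adjusted p = 0.00277), and Slc10a1, or NTCP, which takes bile acids up from blood (log2 fold change 0.55, SE 0.13, adjusted p = 0.0115). The export pump Abcb11 was between 679 and 962 CPM at ZT1 (median 792) and 348 and 290.1 CPM in Ctr and 430.5, 285 and 255 CPM in HFD mice at ZT13. No ZT13 liver reached the ZT1 range (log2 fold change -1.33, SE 0.15, adjusted p = 2.93e-05). Nr0b2, the FXR target SHP that represses Cyp7a1, fell too (log2 fold change -1.52, SE 0.23, adjusted p = 4.10e-04), with HFD ZT1 replicate 3 (22.4 CPM) inside the ZT13 range. Abcg5 (0.61), a sterol exporter that overlaps Abcg8, lost its call without Ctr ZT13 replicate 2, HFD ZT1 replicates 1 and 2 and HFD ZT13 replicate 1, each alone (adjusted p from 0.0596 to 0.0772). Cyp7b1 (1.06) did so without Ctr ZT1 replicates 1 and 2, Ctr ZT13 replicates 2 and 3, HFD ZT1 replicates 1 and 2 and HFD ZT13 replicates 1 and 3 (adjusted p from 0.0659 to 0.107), and also by DESeq2 (adjusted p = 0.0674), without the 2 libraries that stand apart (adjusted p = 0.0632) and with all 34 libraries in the fit (adjusted p = 0.149). The number of bile acid genes that rose was 3 without Ctr ZT13 replicate 2, HFD ZT1 replicate 1, HFD ZT1 replicate 2 or HFD ZT13 replicate 1.

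Of 32 genes for fatty acid oxidation and ketogenesis, 3 rose and 1 fell (12.5 % of the list, against 8.48 % of all genes), with a median log2 fold change of 0.10. Cpt1a, which admits long-chain fatty acids into mitochondria, was between 247 and 327 CPM at ZT1 (median 274) and 472 and 541 CPM in Ctr and 388, 454 and 464 CPM in HFD mice at ZT13. Its values did not overlap (log2 fold change 0.73, SE 0.11, adjusted p = 5.43e-04). The peroxisomal thiolase Acaa1a (0.70, overlapping Myd88 and Slc22a14) and Pex11a (0.47), a factor in peroxisome division, rose as well. Pex11a lost its call without Ctr ZT13 replicate 3 (adjusted p = 0.0636). Plin2, a coat protein of lipid droplets rather than an oxidation enzyme, was between 267 and 362 CPM at ZT1 (median 294) and 100.6 and 150.2 CPM in Ctr and 133, 104.6 and 135 CPM in HFD mice at ZT13. The fall was 2.38-fold with no overlap (log2 fold change -1.25, SE 0.13, adjusted p = 1.53e-05). Without the 2 libraries that stand apart, 7 genes rose and 3 fell. Leaving out HFD ZT13 replicate 3 alone gave 5 and 2, and leaving out Ctr ZT1 replicate 3 gave 3 that fell.

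Drug metabolism and haem genes split evenly, with 4 of 26 higher and 4 lower (median log2 fold change -0.03). Alas1, the rate-limiting enzyme of haem synthesis, was between 72.7 and 179 CPM at ZT1 (median 165) and 548 and 608 CPM in Ctr and 811, 676 and 603 CPM in HFD mice at ZT13. A wide gap separated the time points (log2 fold change 2.15, SE 0.17, adjusted p = 8.24e-07). Cyp2a5 rose 4.07-fold (log2 fold change 2.02, SE 0.19, adjusted p = 4.68e-06), as did Por and, more weakly, the xenobiotic receptor CAR, Nr1i3 (0.71, overlapping Tomm40l). The Nr1i3 call was lost without Ctr ZT1 replicates 2 and 3, Ctr ZT13 replicate 3 and HFD ZT13 replicates 1 and 2, each alone (adjusted p from 0.05005 to 0.1). Cyp2c55 (-1.59) and the glutathione transferase Gstm1 (-0.57) fell. Of the other 2 that fell, Cyp2b9 (-1.59) lost its call without Ctr ZT1 replicate 1, Ctr ZT13 replicate 3 and HFD ZT13 replicate 2 (adjusted p from 0.0556 to 0.0740), and Cyp2c29 (-0.52) without Ctr ZT1 replicates 2 and 3, Ctr ZT13 replicates 2 and 3, HFD ZT1 replicates 1 and 3 and HFD ZT13 replicates 2 and 3 (adjusted p from 0.0529 to 0.142). Other settings ended calls too: Nr1i3 with all 34 libraries in the fit (adjusted p = 0.0513) and with no diet covariate (adjusted p = 0.0751), Cyp2b9 without the 2 libraries that stand apart (adjusted p = 0.0551), with all 34 libraries in the fit (adjusted p = 0.0999) and with no diet covariate (adjusted p = 0.0939), and Cyp2c29 with RLE normalisation (adjusted p = 0.0516), without the 2 libraries that stand apart (adjusted p = 0.0671) and without these and Ctr ZT1 replicate 3 (adjusted p = 0.0868). Without Ctr ZT13 replicate 3 or HFD ZT13 replicate 2, 2 genes of the list fell. Cytochromes of a family are alike in sequence, and their counts are uncertain.

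Chaperones of the cytosol, induced when proteins unfold, were listed apart from those of the endoplasmic reticulum. Of 24 genes of the cytosolic heat shock response, 6 rose and none fell in edgeR's test (0 at an unadjusted p below 0.05, 0 by both DESeq2 and limma-voom; median log2 fold change 0.14). Hspa1b, an inducible HSP70, was between 12.8 and 54.1 CPM at ZT1 (median 16.2) and 58.8 and 81.2 CPM in Ctr and 117, 123 and 54.1 CPM in HFD mice at ZT13. HFD ZT1 replicate 1 had the highest ZT1 value, just above the lowest at ZT13 in HFD replicate 3 (log2 fold change 1.77, SE 0.33, adjusted p = 0.00272). Its near-identical neighbour Hspa1a (2.54) shares sequence with it. Per the study's methods, reads that mapped to a single place were counted, so reads alike in both genes would be missing, and both counts are uncertain. The HSP40 co-chaperones Dnajb4 (0.80), Dnaja1 (0.54) and Dnajb1 (0.59) and Hsph1 (0.56) rose less. Dnaja1 overlaps Smu1 and Hspa1a overlaps Gm20481. Calls were lost for Dnajb1 without Ctr ZT1 replicates 2 and 3, Ctr ZT13 replicates 2 and 3, HFD ZT1 replicates 2 and 3 and HFD ZT13 replicates 1 and 2 (adjusted p from 0.0604 to 0.134) and Hsph1 without Ctr ZT1 replicates 1 and 2, Ctr ZT13 replicate 2, HFD ZT1 replicate 2 and HFD ZT13 replicate 1 (adjusted p from 0.0670 to 0.122), each library left out alone. Of 4 genes linked to cold, not all of which encode RNA-binding proteins, Rbm3 rose 2.44-fold (log2 fold change 1.29, SE 0.16, adjusted p = 7.40e-05) and the other 3 did not pass the test, with a median for the list of -0.13.

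Of 24 genes for chaperones of the endoplasmic reticulum and the unfolded protein response, 9 fell and none rose in edgeR's test (0 at an unadjusted p below 0.05, 0 by both DESeq2 and limma-voom), with a median log2 fold change of -0.40. These proteins fold and check secreted proteins, the main product of hepatocytes. Pdia4, a disulfide isomerase, was between 229.7 and 395 CPM at ZT1 (median 335) and 191 and 168 CPM in Ctr and 169.8, 216 and 155 CPM in HFD mice at ZT13. Every ZT13 liver was lower than every ZT1 liver (log2 fold change -0.87, SE 0.14, adjusted p = 8.13e-04). Sdf2l1 (-1.46), the lectin chaperone Calr (-0.64) and the ubiquitin ligase Syvn1 (-1.25, overlapping Mrpl49) fell, and so did Pdia6 (-0.64), Pdia3 (-0.42), Hsp90b1 (-0.47), Manf (-0.68) and Hspa5 (-0.50), the last being BiP. Without Ctr ZT13 replicate 3 or HFD ZT13 replicate 1, 5 of the list fell, and without the 2 libraries that stand apart 13 did. Calls lost without a single library were those of Hspa5 without Ctr ZT1 replicates 1 and 3, Ctr ZT13 replicates 2 and 3, HFD ZT1 replicate 1 and HFD ZT13 replicate 1 (adjusted p from 0.0549 to 0.0868), Manf without Ctr ZT1 replicate 1, Ctr ZT13 replicates 2 and 3, HFD ZT1 replicate 1 and HFD ZT13 replicate 1 (adjusted p from 0.0583 to 0.0929), Hsp90b1 without Ctr ZT13 replicate 3 and HFD ZT13 replicate 1 (adjusted p from 0.0534 to 0.0955) and Pdia3 without Ctr ZT13 replicate 3 and HFD ZT13 replicate 1 (adjusted p from 0.0540 to 0.0769). With all 34 libraries in the fit, Hspa5, Hsp90b1 and Pdia3 lost them too (adjusted p = 0.0909, 0.116 and 0.0745).

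The integrated stress response, which lowers protein synthesis through eIF2α, had 3 of 19 tested genes higher and 3 lower (median log2 fold change -0.23). The genes that rose include Ppp1r15a (0.87, overlapping Tulp2) and Ppp1r15b (0.43), both subunits of the phosphatase that ends the response, and Sesn2 (0.79). Each lost its call without 1 library: Ppp1r15a without Ctr ZT13 replicate 3 (adjusted p = 0.0505), Ppp1r15b without Ctr ZT13 replicate 2 (adjusted p = 0.0675) and Sesn2 without Ctr ZT13 replicate 2 (adjusted p = 0.0512). Without Ctr ZT13 replicate 2, 1 gene of the list rose. Atf5, a transcription factor of the response that overlaps Il4i1 and Nup62, was between 243 and 459 CPM at ZT1 (median 397) and 224 and 197 CPM in Ctr and 112, 126 and 96.2 CPM in HFD mice at ZT13. Both Ctr livers at ZT13 were above the 3 HFD livers, and all 5 were below those at ZT1 (log2 fold change -1.32, SE 0.21, adjusted p = 8.13e-04). Vldlr (-1.39) fell, as did the serine synthesis gene Psph (-0.63), whose call was lost without Ctr ZT1 replicates 1, 2 and 3, Ctr ZT13 replicates 2 and 3, HFD ZT1 replicate 2 and HFD ZT13 replicates 1 and 2, each alone (adjusted p from 0.0621 to 0.157), and with all 34 libraries in the fit (adjusted p = 0.0592).

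Ribosomes are assembled in the nucleolus from ribosomal RNA and proteins. Of 28 ribosome biogenesis genes, 14 rose and none fell in edgeR's test (0 at an unadjusted p below 0.05, 0 by both DESeq2 and limma-voom), 26 had positive values and the median log2 fold change was 0.53. Nop56, a core protein of the particles that modify ribosomal RNA, was between 7.24 and 12.2 CPM at ZT1 (median 10.2) and 24.7 and 16.5 CPM in Ctr and 29.1, 36.7 and 16.7 CPM in HFD mice at ZT13. The lowest ZT13 liver exceeded the highest ZT1 liver (log2 fold change 1.27, SE 0.20, adjusted p = 7.66e-04), although Nop56 overlaps Idh3b. Its partner Nop58 (1.10), the processome protein Utp4 (0.84), the helicase Ddx21 (0.69), Nop2 (1.20), Rrp12 (1.30), Gnl3 (1.07), Heatr1 (0.85) and Nolc1 (1.19), the nucleolar protein Ncl (0.50) and the RNA polymerase I subunits Polr1a (0.84) and Polr1b (0.80) rose too, as did Wdr12 (0.57) and Rrs1 (0.72). Rrs1 lost its call without Ctr ZT13 replicate 2 and HFD ZT13 replicates 1 and 2 (adjusted p from 0.0534 to 0.0809). Of 82 tested genes for cytosolic ribosomal proteins, 0 passed edgeR's test in either direction (higher: 0 at an unadjusted p below 0.05, 0 by both DESeq2 and limma-voom; lower: the same), and their median was 0.10. The 2 lowest p-values among them belonged to Rps10 (log2 fold change 1.15, adjusted p = 0.312, mean 0.581 CPM, overlapping RPS10-NUDT3) and Rpl5 (0.19, adjusted p = 0.387, overlapping Fam69a). Of 89 genes for the respiratory chain and its assembly, 1 rose, the assembly factor Ndufaf4 (log2 fold change 1.03, SE 0.16, adjusted p = 5.07e-04), and the median was 0.07. Without the 2 libraries that stand apart, 3 did.

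Among 16 targets or mediators of growth hormone signalling through STAT5, 5 rose and 2 fell (median log2 fold change 0.34). The transcription factors themselves fell: Stat5b from a median of 93.8 to 48.8 CPM (log2 fold change -0.94, SE 0.12, adjusted p = 1.16e-04) and Stat5a, which overlaps Stat3, with a log2 fold change of -1.05. Socs2, a feedback inhibitor that STAT5 induces, was between 4.00 and 30.5 CPM at ZT1 (median 4.84) and 64.6 and 21.6 CPM in Ctr and 29.5, 33.8 and 36.5 CPM in HFD mice at ZT13. HFD ZT1 replicate 3 (30.5 CPM) lay inside the ZT13 range, while the other 5 ZT1 livers were below 21.6 CPM, the lowest ZT13 value (log2 fold change 2.09, SE 0.46, adjusted p = 0.00864). The male-biased Cyp2d9 (0.53), Onecut1, Cyp7b1 and Serpina3k also rose. Cyp2d9 lost its call with all 34 libraries in the fit (adjusted p = 0.0977), and the calls of Cyp7b1 and Serpina3k were lost in several settings. The number that rose was 3 without Ctr ZT1 replicate 1, Ctr ZT1 replicate 2, Ctr ZT13 replicate 2, Ctr ZT13 replicate 3, HFD ZT1 replicate 1 or HFD ZT13 replicate 1.

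Several mitotic transcripts were lower in the early dark. Of 30 cell cycle genes, 3 rose and 9 fell, 4 had values above 0 and the median log2 fold change was -0.74. Mki67, the proliferation marker Ki-67, was between 7.91 and 18.3 CPM at ZT1 (median 13.5) and 2.48 and 6.69 CPM in Ctr and 4.89, 5.29 and 7.71 CPM in HFD mice at ZT13. The highest ZT13 value was just under the lowest ZT1 value (log2 fold change -1.36, SE 0.26, adjusted p = 0.00324). Cdc20 (-1.87, overlapping Elovl1) and cyclin A2, Ccna2 (-1.38, overlapping Exosc9), fell, and so did Kif20a (-1.49), Plk1 (-1.74), Top2a (-1.20), Aurkb (-1.60) and Bub1 (-2.26). Cdkn1a, which fell as well, encodes an inhibitor and not a driver of division. The 3 that rose were the cyclins E, Ccne1 (1.70) and Ccne2 (1.47, overlapping Ints8), which act before DNA replication, and the mitotic inhibitor Wee1. Calls were lost for Top2a without Ctr ZT13 replicate 2 (adjusted p = 0.0542), Aurkb without Ctr ZT1 replicate 1, Ctr ZT13 replicates 2 and 3, HFD ZT1 replicate 2 and HFD ZT13 replicates 1 and 2 (adjusted p from 0.0542 to 0.0782) and Bub1 without Ctr ZT1 replicates 1 and 2, Ctr ZT13 replicates 2 and 3, HFD ZT1 replicates 1, 2 and 3 and HFD ZT13 replicates 1 and 2 (adjusted p from 0.0515 to 0.130), each library left out alone. Mki67 had medians of 13.6 CPM at ZT1, 17.8 at ZT5 and 4.19 at ZT21. Which cells of the liver made these transcripts was not tested.

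Among 22 enzymes of amino acid, urea and NAD metabolism, 4 rose and 3 fell (median log2 fold change 0.23), and 7 rose without the 2 libraries that stand apart. Nampt, the rate-limiting enzyme of NAD salvage and a target of the clock, was between 42.3 and 87.2 CPM at ZT1 (median 62.2) and 225 and 252 CPM in Ctr and 224, 235 and 366 CPM in HFD mice at ZT13. HFD ZT13 replicate 3 was highest, and the other 4 at ZT13 were close to each other and far above ZT1 (log2 fold change 2.08, SE 0.18, adjusted p = 2.27e-06). The urea cycle gene Asl rose 2.16-fold (log2 fold change 1.11, SE 0.14, adjusted p = 9.61e-05), and the polyamine genes Amd1 (0.92) and Odc1 (0.46) rose by less. Odc1 lost its call without Ctr ZT1 replicates 1 and 2, Ctr ZT13 replicates 2 and 3, HFD ZT1 replicates 1 and 2 and HFD ZT13 replicate 1, each alone (adjusted p from 0.0533 to 0.0953). Hal, which begins histidine breakdown, fell from a median of 444 to 241 CPM (log2 fold change -0.86, SE 0.11, adjusted p = 9.05e-05), and the threonyl-tRNA synthetase Tars (-0.65) and the proline synthesis gene Aldh18a1 (-1.41) fell too.

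**Figure D3:**
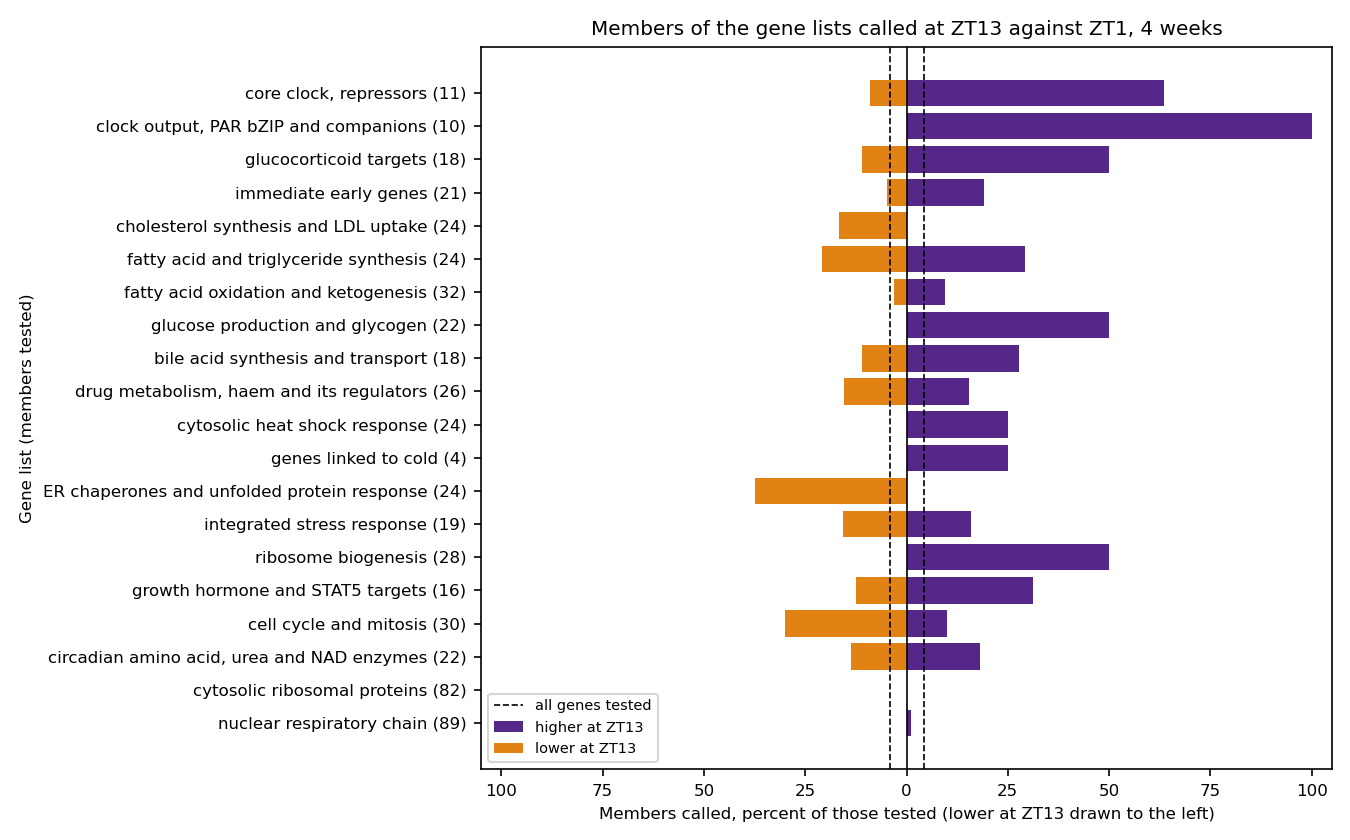
Percent of the tested members of 20 gene lists (number tested in parentheses) that were higher (right) or lower (left) at ZT13 than at ZT1 at 4 weeks, with dashed lines at the shares for all genes tested (4.31 % and 4.17 %). All 10 clock output genes rose, none of the 24 genes for endoplasmic reticulum chaperones rose, and none of the 82 ribosomal protein genes passed in either direction.

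Some of the most highly expressed genes of the liver also differed. Among those called, Serpina3k, Cyp2e1, Fga and Tat were named for their high mean level. Cyp2e1, the ethanol-inducible cytochrome P450, was between 4472 and 5144 CPM at ZT1 (median 4834) and 7432 and 7527 CPM in Ctr and 8124, 7918 and 8808 CPM in HFD mice at ZT13. Its time points did not overlap (log2 fold change 0.71, SE 0.11, adjusted p = 3.60e-04). Tat, the initial enzyme of tyrosine breakdown (log2 fold change 0.73, SE 0.13, adjusted p = 0.00232), rose, while the fibrinogen chain Fga fell (log2 fold change -0.66, SE 0.15, adjusted p = 0.00931), with HFD ZT1 replicate 2 far above the other ZT1 livers at 10251 CPM. Serpina3k (0.43), which overlaps its relative Serpina3m, lost its call without Ctr ZT1 replicates 1 and 2, Ctr ZT13 replicates 2 and 3, HFD ZT1 replicates 1 and 2 and HFD ZT13 replicates 1 and 2, each alone (adjusted p from 0.0623 to 0.160), and with RLE normalisation (adjusted p = 0.0516).

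Markers of the other liver cell types were compared as lists. Of all genes tested, 8.48 % differed. In lists of 2 to 10 tested members, few or no calls are then no result about these cells, and the counts are descriptions. None of 10 tested for Kupffer cells and macrophages, 8 for sinusoidal endothelium, 9 for stellate cells and fibroblasts, 6 for B cells, 9 for T and NK cells, 5 for neutrophils and 2 for pancreatic acinar cells passed edgeR's test, with median log2 fold changes of -0.27, 0.22, 0.21, -0.83, -0.37, -0.76 and -0.46 in that order. At an unadjusted p below 0.05 there were 1 endothelial marker higher and 2 B cell, 1 T and NK cell and 1 acinar marker lower. By DESeq2, 1 B cell and 1 acinar marker fell, and by limma-voom 1 B cell marker did. The summed level of Kupffer cell markers was between 497 and 798 CPM at ZT1 and between 418 and 657 at ZT13, led by Clec4f. Of 6 cholangiocyte markers Sox9 fell (-1.25), of 8 erythroid markers Car1 rose (0.82) and Hba-a2 fell (-1.16), and of 2 adipocyte markers Cidec rose (1.03), with medians of -0.02, -0.40 and 0.52. Calls were lost for Car1 without Ctr ZT1 replicate 1, Ctr ZT13 replicate 3, HFD ZT1 replicates 1 and 2 and HFD ZT13 replicate 1 (adjusted p from 0.0592 to 0.105), Hba-a2 without Ctr ZT1 replicates 1, 2 and 3, Ctr ZT13 replicate 2, HFD ZT1 replicates 2 and 3 and HFD ZT13 replicates 1 and 2 (adjusted p from 0.0608 to 0.111) and Cidec without Ctr ZT1 replicates 1 and 2, Ctr ZT13 replicate 2, HFD ZT1 replicates 1 and 2 and HFD ZT13 replicate 1 (adjusted p from 0.0513 to 0.147), each library left out alone. Hba-a2 also lost its call without the 2 libraries that stand apart and Ctr ZT1 replicate 3 (adjusted p = 0.0707), with all 34 libraries in the fit (adjusted p = 0.178) and by limma-voom (adjusted p = 0.0701), and Cidec with all 34 libraries in the fit (adjusted p = 0.127) and by limma-voom (adjusted p = 0.0521). The pancreatic genes Cela3b and Try4 were at 0 throughout. B cell markers, led by Ighm, summed to between 6.97 and 14.8 CPM at ZT1 and 3.06 and 8.97 at ZT13. The tested markers of B cells, Kupffer cells and neutrophils all had log2 fold changes below 0. In B cell markers the median was -1.83 in Ctr, where 1 fell, and -0.10 in HFD mice, and in T and NK cell markers -1.28 and 0.13. Over both diets, 1 B cell and 1 acinar marker fell without the 2 libraries that stand apart. What part such cells have in the differences was not tested.

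Within the hepatocytes, markers of the zone around the central vein were higher at ZT13 as a sum. The 9 pericentral markers summed to between 7250.4 and 8812 CPM at ZT1 and between 10764 and 11723 at ZT13. The groups did not overlap, and Cyp2e1 held 66.1 % of the sum. Slc1a2 (0.82) rose with it, but Axin2 (-0.99) and Cyp2c29 fell and the other 5 did not pass the test (median 0.20). Without the 2 libraries that stand apart, 1 pericentral marker fell. The Axin2 call was lost without Ctr ZT1 replicates 1, 2 and 3, Ctr ZT13 replicate 3, HFD ZT1 replicates 1 and 2 and HFD ZT13 replicate 1 (adjusted p from 0.0519 to 0.0959). Of 9 periportal markers, Sds rose (0.80) and Hal fell (-0.86), 2 rose without the 2 libraries that stand apart, the median was 0.01, and their sums overlapped (between 8965 and 11142 CPM at ZT1, between 7976 and 11393 at ZT13).

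The ZT difference was also taken within each maternal diet, to ask whether the diets differ in it. In both, Dbp, Per3, Ciart and Tef were high and Arntl low at ZT13, and all 10 output genes rose in each. In Ctr mice, 328 of 16776 genes differed (1.96 %; 172 higher and 156 lower), with 3 mice at ZT1 and 2 at ZT13. In HFD mice, 528 did (3.15 %; 252 higher and 276 lower), with 3 mice at each time. Dbp had a log2 fold change of 6.37 in Ctr and 6.38 in HFD, Arntl -1.98 and -2.03, and Per2 2.30 and 2.29. The difference between the diets itself was tested as an interaction, and 0 of 16776 genes passed (0 %) in edgeR's quasi-likelihood test, with 506 at an unadjusted p below 0.05 and 0 by DESeq2. With no filter on low counts, 55 passed, with a replicate block 5, with the block and GC offsets 11, and without all libraries numbered 3, 30.

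The named genes of lowest interaction p were Acot4 and Esr1, given as values since neither passed. Acot4, an acyl-CoA thioesterase of peroxisomes that overlaps Gm49366, was between 19.7 and 29.1 CPM at ZT1 (median 22.8) and 71.7 and 50.6 CPM in Ctr and 33.1, 27.1 and 29.7 CPM in HFD mice at ZT13. Its 2 Ctr livers stood above the 3 HFD livers at ZT13. The log2 fold change was 1.44 (SE 0.21) in Ctr and 0.24 (SE 0.19) in HFD, a difference of -1.20 (SE 0.28, unadjusted p = 6.52e-04, adjusted p = 1). Esr1, the estrogen receptor, had 1.25 (SE 0.19) in Ctr and 0.22 (SE 0.18) in HFD (unadjusted p = 0.00134, adjusted p = 1). Over both diets, Acot4 (0.79) and Esr1 (0.69) rose. Acot4 lost that call without Ctr ZT1 replicates 1, 2 and 3 and Ctr ZT13 replicates 2 and 3 (adjusted p from 0.0528 to 0.0806) and Esr1 without Ctr ZT1 replicates 1 and 2 and Ctr ZT13 replicates 2 and 3 (adjusted p from 0.0578 to 0.0907), each library left out alone. Esr1 also lost it with all 34 libraries in the fit (adjusted p = 0.0586). The within-diet counts rest on few mice. In Ctr, the count was 75 without Ctr ZT13 replicate 2 and 130 without Ctr ZT13 replicate 3. It was 207, 198 and 195 without Ctr ZT1 replicates 1, 2 and 3. Without HFD ZT1 replicate 3, a library of the other diet, it was 494, and the cause was not tested. In HFD, it was 299, 276 and 868 without HFD ZT1 replicates 1, 2 and 3, and 281 and 323 without HFD ZT13 replicates 1 and 2.

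Livers of 16-week-old mice, from other animals counted in a separate table (6 at ZT1 and 6 at ZT13), gave a comparison that shares no library with this one. There too Dbp rose and Arntl fell, with log2 fold changes of 6.13 for Dbp and -2.77 for Arntl, and 2514 of 16444 genes differed (15.3 %; 1191 higher and 1323 lower). Age and table coincide, so levels were not compared between ages, and the difference between the ZT differences was tested instead. It passed for 12 of 16444 genes (0.073 %), 9 with the larger value at 4 weeks and 3 at 16 weeks, with 1047 at an unadjusted p below 0.05 and 52 by DESeq2. The count was 5 without the 4-week Ctr ZT13 replicate 2, 7 without HFD ZT13 replicate 1, 20 without HFD ZT13 replicate 3, and 7 without the 16-week Ctr ZT13 replicate 2. No core clock gene but Nfil3 was among the 12.

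In 8 named genes the ZT difference differed between the ages, each with the higher value at 4 weeks, as the 3 with the larger value at 16 weeks are not among those named. Igfbp1, which rose at ZT13 at 4 weeks, was between 482 and 742 CPM at ZT1 (median 649) and between 161 and 599 at ZT13 (median 326) at 16 weeks. At that age it fell, with log2 fold changes of 1.28 at 4 weeks and -1.01 at 16 weeks (difference 2.27, SE 0.32, adjusted p = 0.00114). Ddit4 was between 21.1 and 53.5 CPM at ZT1 (median 36.8) and between 18.2 and 50.0 at ZT13 (median 25.6) at 16 weeks, where the times overlapped. Its log2 fold changes were 2.10 at 4 weeks and -0.30 at 16 weeks (difference 2.39, SE 0.33, adjusted p = 0.00114). Slc38a2, an amino acid transporter of the SNAT family, rose at 4 weeks, from between 203 and 303 CPM at ZT1 (median 240.2) to 576 and 581 CPM in Ctr and 606, 490.5 and 889 CPM in HFD mice at ZT13. HFD replicate 3 was the highest. The log2 fold changes were 1.33 at 4 weeks and 0.11 at 16 weeks (difference 1.20, SE 0.21, adjusted p = 0.0137). The kinase gene Pim3 had 1.17 at 4 weeks and 0.17 at 16 weeks (difference 0.98, SE 0.17, adjusted p = 0.0137), a call lost without the 4-week Ctr ZT13 replicate 2 (adjusted p = 0.0523). Pim3 also lost it with GC offsets (adjusted p = 0.0540). Abtb2 (-0.05 at 4 weeks and -1.49 at 16 weeks, difference 1.43, SE 0.20, adjusted p = 0.00114) and Fam222a (0.49 at 4 weeks and -1.58 at 16 weeks, difference 2.06, SE 0.30, adjusted p = 0.00190) did not pass the test at 4 weeks and fell at 16 weeks. At 4 weeks the value of Abtb2 was near 0 and turned positive without Ctr ZT13 replicate 3 (0.03), HFD ZT1 replicate 1 (0.01) or HFD ZT13 replicate 3 (0.02).

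Nfil3 fell at both ages, and more at 16 weeks (-0.46 at 4 weeks and -1.23 at 16 weeks, difference 0.75, SE 0.14, adjusted p = 0.0235). That call was lost without any 1 of these libraries: at 4 weeks, Ctr ZT13 replicate 2 and HFD ZT13 replicate 1 and, at 16 weeks, Ctr ZT1 replicate 1, Ctr ZT13 replicate 2, HFD ZT1 replicate 1 and HFD ZT13 replicate 3 (adjusted p from 0.0522 to 0.105). G6pc rose more at 4 weeks (1.32 at 4 weeks and 0.37 at 16 weeks, difference 0.94, SE 0.18, adjusted p = 0.0369), a call lost without any 1 of these: at 4 weeks, Ctr ZT1 replicate 2, Ctr ZT13 replicates 2 and 3, HFD ZT1 replicates 1 and 2 and HFD ZT13 replicates 1 and 2 and, at 16 weeks, Ctr ZT1 replicates 1, 2 and 3, Ctr ZT13 replicates 1, 2 and 3, HFD ZT1 replicate 1 and HFD ZT13 replicates 1 and 2 (adjusted p from 0.0527 to 0.107). The other 4 of the 12 are not named here. Lists side by side show where the ages gave different counts, without a test of the list. Of all genes tested, 4.31 % rose and 4.17 % fell at 4 weeks, and 7.24 % rose and 8.05 % fell at 16 weeks. Of the cell cycle genes, 3 rose and 9 fell at 4 weeks (median -0.74), and 5 rose and 1 fell at 16 weeks (median 0.08). Of the glucocorticoid targets, 9 rose and 2 fell at 4 weeks and 2 rose and 1 fell of 17 tested at 16 weeks (median -0.01). Immediate early genes gave 4 and 1 at 4 weeks and 0 and 7 at 16 weeks (2 higher at an unadjusted p below 0.05 in edgeR's test, the other tools not run there; median -0.37). Of the endoplasmic reticulum chaperone list, 9 of 24 fell at 4 weeks and 14 of 24 at 16 weeks (median -0.42), and all 10 clock output genes rose at both.

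**Figure D4:**
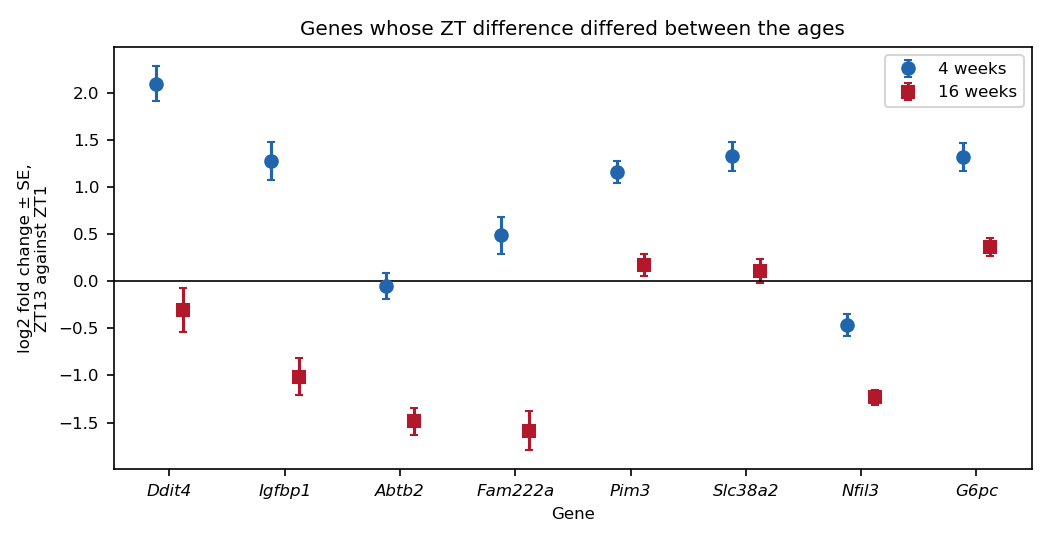
Log2 fold change of ZT13 against ZT1, with SE bars, at 4 weeks (11 libraries, blue circles) and 16 weeks (12 libraries, red squares) for the 8 named genes whose ZT difference differed between the ages. Igfbp1 lies above 0 at 4 weeks and below 0 at 16 weeks, and all 8 genes have the higher value at 4 weeks.

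Promoter sequences are shown for some clock and heat shock genes. Promoters were taken from RefSeq (build GRCm38.p6, from 250 bases before to 50 after the gene start) and matched by symbol for 11617 of 16772 symbols tested, 554 of 723 that rose and 531 of 699 that fell. Both strands were searched for the E-box CACGTG bound by CLOCK and BMAL1, the D-box TTATGTAA or TTATGCAA bound by PAR bZIP factors, the REV-ERB motif TAGGTCA, the heat shock motif GAANNTTC and the CRE TGACGTCA. The E-box, GAANNTTC and CRE patterns read the same on both strands. No motif contains another, though matches may share bases. An E-box was in 13.5 % of promoters of genes that rose, 9.79 % of those that fell, 9.68 % of those tested and 7.15 % of all 32851 promoters. For the D-box the shares in the same order were 3.25, 0.753, 1.26 and 1.66 %. TAGGTCA gave 1.80, 4.33, 2.06 and 2.61 %, GAANNTTC 6.86, 4.71, 5.78 and 7.86 %, and the CRE 4.33, 1.88, 3.04 and 1.79 %. These shares are descriptions, and a match is not a binding site.

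Stretches with E-boxes (capitals) come from clock genes that rose, each read 5′ to 3′ on the strand of its gene. Ciart holds 3 of them. An E-box was also found for Bhlhe41 (not shown), which did not pass the test.
Per1 (chr11:69098758-69098813, + strand): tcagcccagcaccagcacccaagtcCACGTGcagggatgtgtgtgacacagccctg
Cry1 (chr10:85185084-85185139, - strand): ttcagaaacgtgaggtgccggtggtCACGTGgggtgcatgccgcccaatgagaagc
Ciart (chr3:95882242-95882369, - strand): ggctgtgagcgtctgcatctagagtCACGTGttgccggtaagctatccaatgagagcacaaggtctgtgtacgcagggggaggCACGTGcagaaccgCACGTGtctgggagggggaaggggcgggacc
Tef (chr15:81802521-81802576, + strand): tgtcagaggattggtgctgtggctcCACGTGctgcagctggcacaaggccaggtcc

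D-boxes (capitals) lie before the starts of Per1 and Per3, the latter with 2.
Per1 (chr11:69098900-69098948, + strand): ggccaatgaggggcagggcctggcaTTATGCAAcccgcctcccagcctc
Per3 (chr4:151044791-151044895, - strand): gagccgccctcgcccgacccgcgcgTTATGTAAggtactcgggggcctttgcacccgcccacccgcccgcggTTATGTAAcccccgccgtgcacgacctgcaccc

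Nfil3, which fell, has TGACCTA (capitals), the reverse complement of TAGGTCA, before its start.
Nfil3 (chr13:52981040-52981076, - strand): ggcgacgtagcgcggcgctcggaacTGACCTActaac

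Of the heat shock genes that rose, these 3 had GAANNTTC (capitals) found before their starts, and so did Hspb1, Hspe1 and Fkbp4 (not shown), which did not pass the test. The stretches of Hspa1a and Hspa1b are the same letter for letter.
Hspa1a (chr17:34972228-34972285, - strand): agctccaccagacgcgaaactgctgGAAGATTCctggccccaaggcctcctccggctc
Hspa1b (chr17:34959310-34959367, - strand): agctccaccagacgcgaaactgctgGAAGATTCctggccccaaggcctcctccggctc
Dnaja1 (chr4:40722319-40722376, + strand): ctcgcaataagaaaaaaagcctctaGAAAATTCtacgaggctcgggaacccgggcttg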

How the data were processed

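Counts per gene were used as deposited. According to the study's methods and the submitters' processing notes, the authors isolated mRNA from liver, aligned reads with HISAT2 (version 2.0.5) to GRCm38/mm10 and counted, per gene, those mapped to a single place with featureCounts (version 1.5.0-p3), and whether strand was used is not given in the sources used here. The deposited values are raw counts, in a table for each age, of 54532 genes. Another 2 value columns name no sample used here and were left out.

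A gene was tested where at least 50 % of the Ctr and at least 50 % of the HFD libraries at 4 weeks, over all 6 times, had a count above 0. Counts were normalised with TMM and tested with edgeR 4.0.16 (quasi-likelihood F test, R 4.3.3) for ZT with diet as covariate, within each diet, and for the interactions of ZT with diet and, over 23 libraries of both tables, with age. P-values were adjusted by Benjamini-Hochberg over all genes tested, and adjusted p below 0.05 was the threshold. CPM were computed from the TMM library sizes. SE is the size of the log2 fold change divided by the square root of F. The biological coefficient of variation was 0.250, and total counts of 17045108 to 18220435 per library left differences beyond counting error between all pairs of libraries (chi-square per degree of freedom 17.1 or more). The processing was tested on simulated data.

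Named genes, not all of which are printed, were all members of the clock lists, the 10 largest called changes in each direction (protein-coding, mean of at least 1 CPM, times not overlapping, clone names left out), up to 4 called members of lowest p in each direction of each other list, or the 2 of lowest p where none was called, the 5 called genes of highest mean, and up to 6 called genes of each interaction (or the 2 of lowest p). The members and the 21 lists, and 13 lists of cell type markers, were chosen with earlier results of these data known. No list was tested as a set. Another 39 called list members were named after their values were seen, of which 17 lost the call without some 1 library. Genes that overlap others or have near-identical copies are uncertain. Alternatives were DESeq2 (1.42.0), limma-voom (limma 3.58.1), RLE normalisation, no filter or filterByExpr, a replicate block, offsets for GC content (lowess span 0.3), all 34 libraries in the fit, no diet covariate, and leaving out libraries. Leaving out the 2 libraries that stand apart, alone or with Ctr ZT1 replicate 3, was chosen after seeing the data.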

Additional observations from a re-analysis of the deposited data

Results flagged for a closer look

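Single libraries lay far from the others of their time point for 25 of 270 values examined (9.26 %), where chance gives about 1 in 20. The mitochondrial share was among them at both times, 12.42 % in HFD ZT1 replicate 3 (the others 5.436 to 8.041 %) and 10.3 % in HFD ZT13 replicate 3 (the others 4.849 to 6.311 %). In HFD ZT1 replicate 1, Per1 was at 27.1 CPM (the others 11.9 to 15.8), Usp2 was at 11.9 CPM (the others 5.90 to 7.56) and Hspa1a was at 3.89 CPM (the others 1.26 to 2.21). In HFD ZT1 replicate 2, Per3 was at 3.10 CPM (the others 1.14 to 1.73), Gstm1 was at 712 CPM (the others 962 to 1100.2), Aldh18a1 was at 4.83 CPM (the others 2.16 to 2.82) and Fga was at 10251 CPM (the others 4848 to 6506). In HFD ZT1 replicate 3, Onecut1 was at 14.1 CPM (the others 2.28 to 6.00) and Socs2 was at 30.5 CPM (the others 4.00 to 9.97). In HFD ZT13 replicate 3, G6pc was at 1025 CPM (the others 1371 to 1490.2), Nampt was at 366 CPM (the others 224 to 252), Ndufaf4 was at 90.0 CPM (the others 50.95 to 62.1) and Slc38a2 was at 889 CPM (the others 490.5 to 606). In Ctr ZT1 replicate 1, Slc34a2 was at 8.18 CPM (the others 1.03 to 2.17), Ddx21 was at 32.5 CPM (the others 36.5 to 37.9) and Cdc20 was at 9.18 CPM (the others 2.73 to 3.67). In Ctr ZT1 replicate 2, Ppp1r3g was at 23.4 CPM (the others 1.54 to 3.14) and Psph was at 10.4 CPM (the others 6.99 to 7.98). In Ctr ZT1 replicate 3, Nr1d1 was at 31.4 CPM (the others 6.07 to 11.8). In Ctr ZT13 replicate 2, Nsdhl was at 63.05 CPM (the others 50.8 to 53.1), Vldlr was at 2.25 CPM (the others 1.07 to 1.32) and Esr1 was at 93.6 CPM (the others 58.8 to 68.0). In Ctr ZT13 replicate 3, Utp4 was at 18.2 CPM (the others 23.2 to 24.4). HFD ZT13 replicate 3 was the far library 5 times and HFD ZT1 replicate 2, 4 times. The causes were not tested.

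The ZT difference differed between the ages, by edgeR's test of the difference, for 8 named genes, with the higher value at 4 weeks: Nfil3 (0.75 on the log2 scale), Ddit4 (2.39 on the log2 scale), G6pc (0.94 on the log2 scale), Igfbp1 (2.27 on the log2 scale), Abtb2 (1.43 on the log2 scale), Fam222a (2.06 on the log2 scale), Pim3 (0.98 on the log2 scale) and Slc38a2 (1.20 on the log2 scale). The 3 genes that passed with the higher value at 16 weeks are not among the named ones.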

How the results depend on the processing

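Of 131 named genes, 122 passed the test, none of these changed sign in any of 26 other settings and 75 passed in all of them. The ZT13 count of 1422 was 2586 with offsets for GC content, 2653 with these and a replicate block, and between 358 and 1673 over fits that left out a library or replicate number. It was 1849 without both HFD replicate 3 libraries and 1936 also without Ctr ZT1 replicate 3. With the replicate block alone it was 1724. Libraries with the same number are from different mice, and deviations of libraries with the same number correlated from -0.113 to 0.646 over 15 pairs. In Ctr mice, 328 genes became 630 with DESeq2, 719 with no filter, 544 with the replicate block, 821 with GC offsets, 962 with both, 504 with all 34 libraries in the fit, 787 without both HFD replicate 3 libraries and 718 also without Ctr ZT1 replicate 3, and 32 to 508 over fits that left out a library or replicate number. In HFD mice, 528 became 882, 994, 852, 1154, 1451, 836 and 1003 in the same order (all 34 libraries apart), and 80 to 940. The interaction with diet gave 55 genes with no filter, 5 with the block, 11 with the block and GC offsets, and 0 to 30 with libraries left out. The interaction with age gave 52 with DESeq2, 190 with no filter, 21 with GC offsets, 35 with the block and GC offsets, 19 without both HFD replicate 3 libraries, 19 also without Ctr ZT1 replicate 3, and 0 to 20 with libraries left out. The sign of 3 genes near 0 turned (ranges over fits that left out a library or replicate number): Bhlhe40 (-0.01198 with the block and GC offsets, -0.13 to 0.127 in those fits), Abtb2 (0.009322 without both HFD replicate 3 libraries, -0.27 to 0.06541 in those fits) and Nr1d1 (-0.002243 with no diet covariate, -0.17 to 0.69 in those fits). The causes were not tested.

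The limits are those of 11 mice. Ctr at ZT13 has 2 of them, and leaving out 1 library moved several counts by over 1.5 times. Light, feeding, sleep and hormones differ together between ZT1 and ZT13 and cannot be told apart, nor can age and count table. A p that misses the threshold does not show that a gene had the same level at both times.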
